A study of Mus musculus with 9 samples.

Results

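The SLC25 family of mitochondrial carriers was taken as every protein-coding gene whose symbol is Slc25a followed by a number. This rule gave 43 of 24187 genes, and all 43 were present in both deposited comparisons. They were measured by RNA-seq in macrophages grown from the bone marrow of C57BL/6 mice (postnatal week 8) in 10 ng/ml M-CSF for 6 days. In 3 libraries the cells had received 500 ng/ml LPS, a bacterial outer membrane lipid that activates macrophages, with 50 µM NCT503, an inhibitor of the serine synthesis enzyme PHGDH. In another 3 they had received 500 ng/ml LPS alone, and in the last 3 neither agent (control); the time was 6 h in every group. No group with NCT503 alone was analysed here, and the labels do not say whether libraries of a group came from separate animals or cultures, so p-values measure only the spread between these libraries.

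Carriers of this family sit in the inner mitochondrial membrane, and each exchanges or moves a small molecule between cytosol and matrix: ADP and ATP, phosphate, keto acids, amino acids, carnitine esters, nucleotides, cofactors or iron. A few members sit elsewhere, among them Slc25a17 in the peroxisome and Slc25a46 in the outer mitochondrial membrane. In activated macrophages the family is best known for the citrate carrier, whose product feeds fatty acid synthesis and inflammatory mediators in the cytosol.

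Levels are reads per gene divided by a library size factor (normalized reads), here with the 9 libraries scaled together. Fold changes are those of limma on log2(normalized reads + 1) ± SE with Benjamini-Hochberg adjusted p over all genes tested, and a gene was called at an adjusted p under 0.05. The libraries held 20295862 to 23599685 reads over the 21434 genes in both comparisons. Size factors were 0.924 to 0.981 in LPS with NCT503, 0.733 to 0.868 in LPS and 1.25 to 1.46 in control. Scaling to total reads instead moved the median of all genes by -0.69 in LPS against control, by 0.24 in LPS with NCT503 against LPS and by -0.45 in LPS with NCT503 against control (log2). All 8 macrophage markers on the list were detected in every library, with summed levels of 204176 to 265681 normalized reads in LPS with NCT503, 423359 to 473405 in LPS and 270951 to 347154 in control. The 7 measured neutrophil markers of 8 summed to 271 to 572 in LPS with NCT503, 2515 to 5986 in LPS and 4196 to 7076 in control. Of these 7, 0 were called higher and 7 lower in LPS with NCT503 against LPS. The 6 stromal markers summed to 16028 to 41136, 15524 to 34037 and 5470 to 25133 in the same 3 groups, and erythroid markers to at most 70.8 in any library, with 3 to 6 of 8 at 0. T and B cell markers summed to at most 86.5, and 0 of the 3 measured rose and 3 fell in LPS with NCT503 against LPS. Of the 8 macrophage markers 4 rose and 0 fell in LPS against control, and 0 rose and 4 fell in LPS with NCT503 against LPS. Of the 6 stromal markers 3 rose and 0 fell in LPS against control, and 0 rose and 2 fell with NCT503 added. All 5 LPS response genes on the list rose in LPS against control and in LPS with NCT503 against control. In LPS with NCT503 against LPS 0 of these 5 rose and 3 fell (Il1b, Il6 and Nos2). The part of other cells in the carrier results was not tested, and in bulk RNA fewer cells of a type and less RNA per cell cannot be told apart.

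The carriers spanned more than 3 orders of magnitude per kilobase of gene length. Slc25a5, an ADP/ATP translocase that exports matrix ATP for cytosolic ADP, was the highest member in every group, with means of 2593 normalized reads per kilobase in LPS with NCT503, 3136 in LPS and 3173 in control. Summed over the family, the level per kilobase was 10198 ± 531 in LPS with NCT503, 14251 ± 1687 in LPS and 11460 ± 1313 in control (SD, n = 3 each). The translocases Slc25a4 and Slc25a5 and the phosphate carrier Slc25a3, which serve ATP synthesis, made up 41.0 ± 1.74%, 33.1 ± 1.29% and 43.1 ± 0.50% of that sum in these 3 groups. As a share of all reads, divided neither by size factors nor by length, the family held 0.1373 to 0.1469%, 0.1666 to 0.1724% and 0.1961 to 0.1993% in the same order. By group means LPS was above control in the per-kilobase sum, though LPS library 1 (12648) lay below control library 3 (12687). In the share of reads every LPS library lay below every control library. The share uses no size factors, which were lower in LPS than in control as given above. The 2 measures thus differ in scaling as well as in length, and neither difference was tested. The glutamate carrier Slc25a22 ranked 14 by level per kilobase in LPS with NCT503, 4 in LPS and 18 in control. Slc25a33 ranked 13 in LPS with NCT503, 22 in LPS and 31 in control. Of the 43 members 39 to 43 had at least 1 read in a library. At the low end stood Slc25a2, Slc25a27, Slc25a31 and Slc25a34, with at most 6 reads each over the 3 libraries of LPS with NCT503, at most 2 over those of LPS and at most 21 over those of control. Such counts are too few for a fold change, and none is given for these 4.

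**Figure D1:**
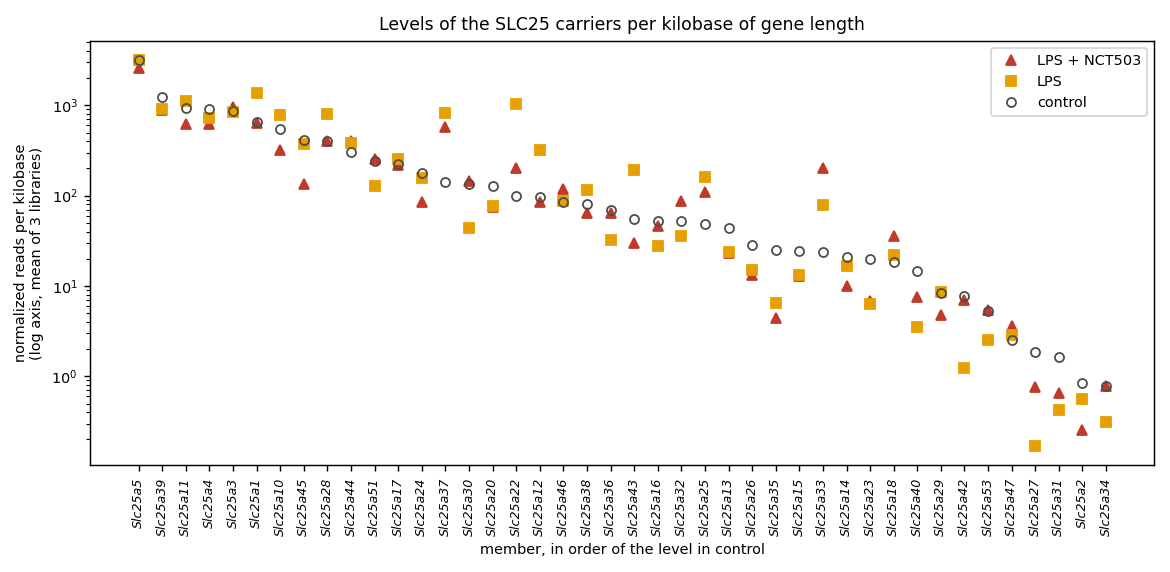
Mean level of each of 42 carriers per kilobase of gene length (normalized reads per kilobase, log axis) in LPS with NCT503 (triangles), LPS (squares) and control (open circles), in order of the control level. Slc25a5 is highest in all 3 groups, and the LPS squares of Slc25a22, Slc25a12, Slc25a37 and Slc25a43 stand above their control circles.

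In LPS against control 22 of the 43 members were called, 8 higher and 14 lower, which is 51.2% of them against 41.8% of all 19975 genes tested (20.5% higher and 21.4% lower). The median log2 fold change of the members was -0.19, against -0.05 over all genes. Groups did not overlap for 26 of the 43, against 50.8% of all genes. Scaled to total reads the split was 6 higher and 28 lower, with all genes at 2092 higher and 8536 lower against 4089 and 4266 under the main scaling. The members called lower with total reads include 13 not called under the main scaling.

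In LPS with NCT503 against LPS 19 of 42 members tested were called, 8 higher and 11 lower, which is 45.2% against 32.6% of all 19795 genes (16.9% higher and 15.7% lower). The median was -0.04 for the members and 0.08 for all genes. Groups did not overlap for 22 of the 43, against 44.9% of all genes. In LPS with NCT503 against control 20 of the 43 were called, 6 higher and 14 lower, or 46.5% against 40.4% of all 19930 genes (20.7% higher and 19.7% lower), with medians of -0.20 and 0.05. Groups did not overlap for 23 of the 43, against 50.2% of all genes. Scaled to total reads these splits were 10 higher and 9 lower, with all genes at 4405 higher and 2137 lower against 3351 and 3098, and 4 higher and 23 lower, with all genes at 2452 higher and 6568 lower against 4134 and 3927. Each pair of comparisons shares 3 libraries, so their values are set side by side below and not counted against each other. Counts by role and by list below stand against 41.8%, 32.6% and 40.4% of all genes called in the 3 comparisons in the order above. The medians of all genes were -0.05, 0.08 and 0.05. The authors' deposited table called 9 members higher and 12 lower with LPS, and 8 higher and 12 lower with NCT503 added.

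**Figure D2:**
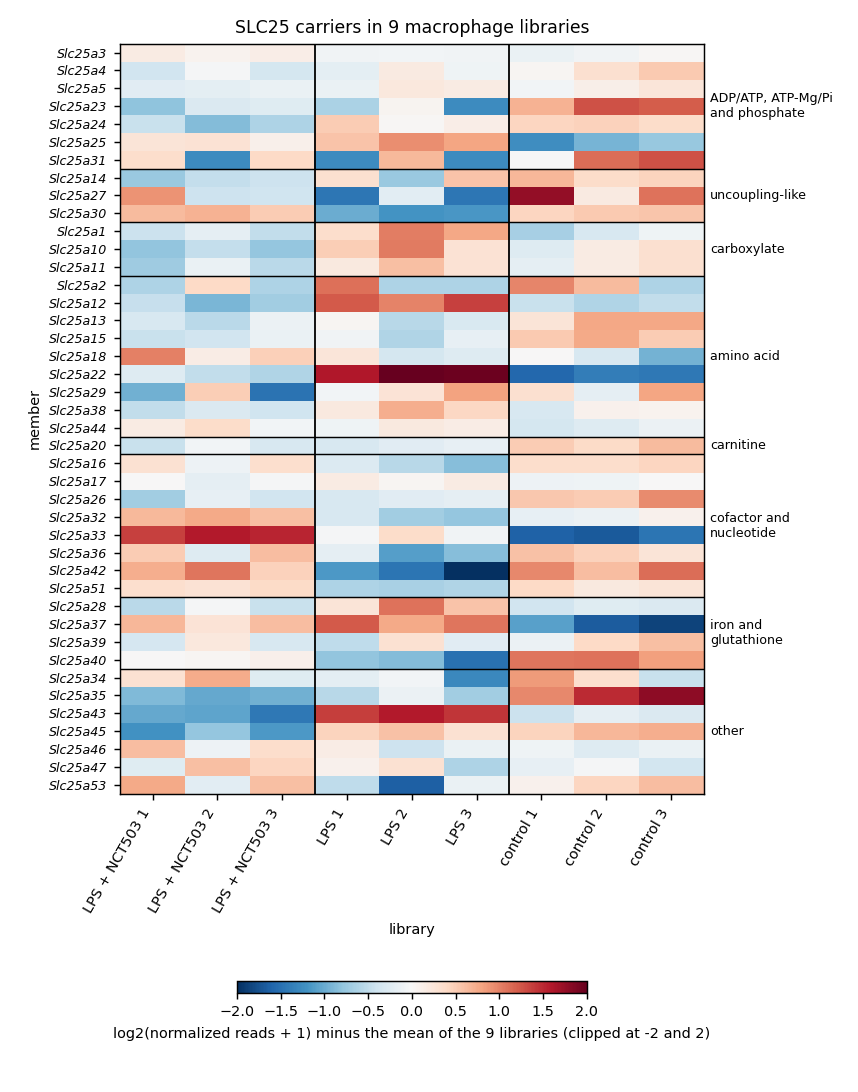
Each of 42 carriers (rows, grouped by role) in each of the 9 libraries (columns), as log2(normalized reads + 1) minus the mean of the 9 libraries, clipped at -2 and 2. Slc25a22, Slc25a12 and Slc25a43 are high (red) in the 3 LPS libraries, and Slc25a33 is high in the 3 libraries of LPS with NCT503 and low (blue) in control.

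Promoters are shown for 4 members whose windows hold one or more of the motifs searched. They run from 250 bases before to 50 after a RefSeq start (GRCm38.p6, minus strand, 5′ to 3′), with matches in capitals. Slc25a1 lies at chr16:17928170-17928469, Slc25a25 at chr2:32424017-32424316, Slc25a33 at chr4:149774218-149774517 and Slc25a36 at chr9:97110992-97111291.
Slc25a1: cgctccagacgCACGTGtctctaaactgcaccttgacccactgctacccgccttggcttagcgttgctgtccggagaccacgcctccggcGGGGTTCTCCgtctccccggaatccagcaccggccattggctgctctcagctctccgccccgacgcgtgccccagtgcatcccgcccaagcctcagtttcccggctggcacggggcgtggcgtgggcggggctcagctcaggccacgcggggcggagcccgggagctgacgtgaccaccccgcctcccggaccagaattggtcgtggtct
Slc25a25: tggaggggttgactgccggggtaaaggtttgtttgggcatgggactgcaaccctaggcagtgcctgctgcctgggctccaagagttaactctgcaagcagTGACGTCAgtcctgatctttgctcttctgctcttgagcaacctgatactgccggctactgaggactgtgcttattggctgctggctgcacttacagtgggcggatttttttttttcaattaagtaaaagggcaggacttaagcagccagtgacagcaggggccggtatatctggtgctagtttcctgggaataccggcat
Slc25a33: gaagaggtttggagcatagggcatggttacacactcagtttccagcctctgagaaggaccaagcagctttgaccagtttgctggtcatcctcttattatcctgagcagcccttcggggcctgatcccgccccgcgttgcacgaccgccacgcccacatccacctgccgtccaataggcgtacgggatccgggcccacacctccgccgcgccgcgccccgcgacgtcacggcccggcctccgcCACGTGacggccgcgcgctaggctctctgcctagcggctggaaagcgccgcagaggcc
Slc25a36: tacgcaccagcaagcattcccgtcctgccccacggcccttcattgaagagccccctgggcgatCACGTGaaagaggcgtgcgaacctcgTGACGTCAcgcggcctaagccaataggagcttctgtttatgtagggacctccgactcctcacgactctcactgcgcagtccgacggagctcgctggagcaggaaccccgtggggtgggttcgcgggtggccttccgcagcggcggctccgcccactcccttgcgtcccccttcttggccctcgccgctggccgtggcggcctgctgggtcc
In these windows the capitals mark an E-box and an NF-κB motif in Slc25a1, a cyclic AMP response element (CRE) in Slc25a25, an E-box in Slc25a33, and an E-box and a CRE in Slc25a36. The matches begin at -239 and -160, at -150, at -8, and at -187 and -161 from the start.

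RefSeq promoters were matched for 33 of the 43 members, with 42 windows in all; those without one included Slc25a2, Slc25a26, Slc25a27, Slc25a32, Slc25a35, Slc25a37, Slc25a44, Slc25a46 and Slc25a51. The CRE (TGACGTCA), on either strand as for all motifs, was in windows of Slc25a25 and Slc25a36 and in 1.79% of all 32851 promoters. The E-box CACGTG was found in Slc25a1, Slc25a13, Slc25a14, Slc25a15, Slc25a31, Slc25a33 and Slc25a36, and in 7.15% of all promoters. An ETS motif (CCGGAAG) was in Slc25a3, Slc25a4, Slc25a17, Slc25a20, Slc25a25 and Slc25a38, and in 8.86% of all. For Slc25a25 it was in another window (chr2:32451421-32451720), at the 5′ end of the gene, which held no CRE. The NF-κB motif was in Slc25a1, Slc25a10 and Slc25a17 and in 8.46% of all, and the NRF1 motif in Slc25a3 and Slc25a31 and in 4.60%. No member window held the ATF4 composite TGATGNAA, found in 3.97% of all promoters. Matches of different motifs did not overlap (0 cases). Slc25a33, Slc25a36, Slc25a1 and Slc25a25 are described with their roles below, and a match shows letters alone.

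Of the carriers that serve ATP synthesis, Slc25a3 and Slc25a5 were not called in any comparison and Slc25a4 in 1. The absence of calls in LPS against control depended on the scaling. In LPS against control, scaling to total reads called Slc25a3, Slc25a4 and Slc25a5 lower (log2 -0.71, -1.03 and -0.72, adjusted p = 0.000491, 0.000106 and 0.000282), and so did quantile normalization (log2 -0.81, -0.86 and -0.85, adjusted p = 0.000102, 0.000346 and 6.69e-05). Of 7 adenine nucleotide and phosphate carriers, LPS against control called 1 higher and 1 lower, LPS with NCT503 against LPS 0 higher and 2 lower, and LPS with NCT503 against control 1 higher and 3 lower, with medians of -0.19, -0.22 and -0.55 in this order. Slc25a3, which brings phosphate into the matrix, had 5507, 5156 and 5388 normalized reads in LPS with NCT503, 4704, 4768 and 4701 in LPS and 4523, 4721 and 5025 in control. Its LPS and control libraries overlapped, its LPS with NCT503 libraries lay above both, and no comparison called it (log2 fold changes 0.00, 0.18 and 0.17 for LPS against control, LPS with NCT503 against LPS and LPS with NCT503 against control; adjusted p = 0.986, 0.392 and 0.343). Slc25a5 had 4133, 4253 and 4417 normalized reads in LPS with NCT503, 4412, 5614 and 5458 in LPS and 4654, 5253 and 5761 in control. The LPS range overlapped the other groups, and every library of LPS with NCT503 lay below every control library. No comparison called the gene (log2 -0.29 ± 0.14, adjusted p = 0.137 for LPS with NCT503 against control, where scaling to total reads called it lower at log2 -0.74 and quantile normalization at -0.84, adjusted p = 0.000585 and 0.000292). Slc25a4, the other major translocase, had 1317, 1692 and 1344 normalized reads in LPS with NCT503, 1499, 1947 and 1617 in LPS and 1779, 2154 and 2476 in control. Every library of LPS with NCT503 lay below every control library, and Slc25a4 fell there by 0.55 ± 0.17 (adjusted p = 0.0267). That call ended when LPS with NCT503 library 1 or 3, or control library 2 or 3, was left out (log2 -0.54 to -0.44, adjusted p = 0.0957 to 0.113). Slc25a4, Slc25a5 and Slc25a31 are close copies of each other, so reads may have been split between them.

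The 3 calcium-regulated carriers of ATP-Mg against phosphate, which set the adenine nucleotide content of the matrix, each had a pattern of their own. Slc25a25 (chromosome 2, 32414487 to 32451445, shown above with a CRE at a start inside the gene) had 893, 906 and 798 normalized reads in LPS with NCT503, 1111, 1418 and 1281 in LPS and 315, 391 and 439 in control. LPS libraries were highest, control lowest, and no groups overlapped. It rose by log2 1.74 ± 0.17 (adjusted p = 9.26e-06) in LPS against control and by log2 1.19 ± 0.17 (adjusted p = 0.000307) in LPS with NCT503 against control. In LPS with NCT503 against LPS it fell (log2 -0.55 ± 0.17, adjusted p = 0.0302), a call that ended without LPS library 2 or 3 or LPS with NCT503 library 1 or 3 (log2 -0.57 to -0.46, adjusted p = 0.074 to 0.13). Slc25a24 had 336, 249.7 and 298 normalized reads in LPS with NCT503, 652, 465 and 504 in LPS and 614, 630.1 and 591 in control. The LPS and control libraries overlapped, and those with NCT503 lay below both. Slc25a24 fell in LPS with NCT503 against LPS (log2 -0.87 ± 0.20, adjusted p = 0.0071) and against control (log2 -1.06 ± 0.17, adjusted p = 0.000557). Slc25a23 had 27.5, 39.5 and 41.1 normalized reads in LPS with NCT503, 31.1, 50.5 and 19.7 in LPS and 79.2, 119 and 114 in control. Control libraries stood above all others, and the 2 LPS groups overlapped. Slc25a23 fell with LPS (log2 -1.67 ± 0.34, adjusted p = 0.00212) and in LPS with NCT503 against control (log2 -1.50 ± 0.27, adjusted p = 0.00144).

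Among 16 ATP synthase subunits and factors, which use the ADP and phosphate these carriers bring in, LPS against control called 3 higher and 1 lower, LPS with NCT503 against LPS 0 higher and 8 lower, and LPS with NCT503 against control 0 higher and 2 lower, with medians of 0.28, -0.53 and -0.25 in this order. Over all genes the shares called were 41.8%, 32.6% and 40.4%. Atp5b, the catalytic subunit, rose with LPS (log2 0.72 ± 0.17, adjusted p = 0.00476). With NCT503 added, the membrane ring subunit Atp5g3 fell (log2 -0.83 ± 0.17, adjusted p = 0.00291). Atpif1, the inhibitor of the synthase, fell in LPS with NCT503 against control (log2 -1.04 ± 0.20, adjusted p = 0.00203).

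The 3 uncoupling-protein-like carriers include Slc25a30 and Slc25a14, which are related in sequence to the uncoupling proteins. Of these 3, 0 rose and 2 fell in LPS against control, 1 rose and 0 fell in LPS with NCT503 against LPS, and 0 rose and 1 fell in LPS with NCT503 against control. Slc25a30 (chromosome 14, 75761999 to 75787037) had 254, 266 and 233 normalized reads in LPS with NCT503, 81.8, 70.9 and 72.1 in LPS and 220.0, 236 and 241 in control. All 3 LPS libraries lay below all others, and the remaining groups overlapped. Slc25a30 fell with LPS (log2 -1.62 ± 0.19, adjusted p = 3.47e-05), rose in LPS with NCT503 against LPS (log2 1.73 ± 0.21, adjusted p = 8.49e-05) and was not called in LPS with NCT503 against control (log2 0.11 ± 0.16, adjusted p = 0.632). Slc25a14, with 20.4 to 56.0 normalized reads in any library, was called in LPS with NCT503 against control alone (log2 -1.04 ± 0.27, adjusted p = 0.0118). Slc25a27 was called lower in LPS against control, on 1 read over the LPS libraries and 21 over the control libraries. Of the uncoupling proteins and carrier homologues with other names, 0 rose and 2 fell of 4 tested with LPS, 1 rose and 1 fell of 3 with NCT503 added, and 1 rose and 2 fell of 3 in LPS with NCT503 against control, with medians of -0.43, -0.32 and -0.85 in this order. Ucp2, the uncoupling protein of immune cells, fell with LPS (log2 -0.83 ± 0.18, adjusted p = 0.00311) and in LPS with NCT503 against control (log2 -1.16 ± 0.16, adjusted p = 0.000209), and was not called in LPS with NCT503 against LPS (log2 -0.32 ± 0.18, adjusted p = 0.199).

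The di- and tricarboxylate carriers move citrate, malate, succinate and oxoglutarate. All 3 fell in LPS with NCT503 against LPS, 1 rose in LPS against control, and 2 fell in LPS with NCT503 against control. Their medians in LPS against control, LPS with NCT503 against LPS and LPS with NCT503 against control were 0.53, -1.07 and -0.57. Slc25a1 (chromosome 16, 17925211 to 17928219), the citrate carrier, had 1329, 1580.5 and 1274 normalized reads in LPS with NCT503, 2276, 3632 and 3038 in LPS and 1119.8, 1433 and 1688 in control. Every LPS library lay above all 6 others, among which the 2 groups overlapped. Slc25a1 rose with LPS (log2 1.08 ± 0.20, adjusted p = 0.00127), fell in LPS with NCT503 against LPS (log2 -1.07 ± 0.20, adjusted p = 0.00186), and was not called in LPS with NCT503 against control (log2 -0.01 ± 0.18, adjusted p = 0.982, 95% interval -0.41 to 0.40). The call with LPS ended with scaling to total reads (log2 0.37, adjusted p = 0.0607). That scaling called Slc25a1 lower in LPS with NCT503 against control (log2 -0.46, adjusted p = 0.0337).

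Slc25a10, which exchanges malate or succinate for phosphate, had 1012, 1259 and 1028 normalized reads in LPS with NCT503, 2463, 3607 and 2135 in LPS and 1469.5, 1976 and 2203 in control. The 3 libraries with NCT503 were the lowest, and LPS and control overlapped. It fell in LPS with NCT503 against LPS (log2 -1.28 ± 0.21, adjusted p = 0.00086) and against control (log2 -0.76 ± 0.18, adjusted p = 0.00728), and LPS against control gave log2 0.53 ± 0.21 (adjusted p = 0.0699). Slc25a11, which exchanges oxoglutarate for malate, had 1109, 1645 and 1241 normalized reads in LPS with NCT503, 2077, 2738 and 2207 in LPS and 1595, 2039 and 2273 in control. The LPS libraries overlapped those of control and lay above those with NCT503, and LPS library 2 was the highest for all 3 carboxylate carriers. Slc25a11 fell in LPS with NCT503 against LPS (log2 -0.82 ± 0.20, adjusted p = 0.00801). It also fell in LPS with NCT503 against control (log2 -0.57 ± 0.19, adjusted p = 0.0383), where the groups overlapped. That call ended when LPS with NCT503 library 1 or 3, or control library 2 or 3, was left out (log2 -0.54 to -0.45, adjusted p = 0.12 to 0.147).

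Of 7 enzymes that make, split or use exported citrate, 2 rose and 1 fell with LPS, 0 rose and 4 fell with NCT503 added, and 1 rose and 4 fell in LPS with NCT503 against control, with medians of 0.24, -0.45 and -0.94 in this order. Acly, which splits citrate in the cytosol, fell in LPS with NCT503 against LPS (log2 -1.17 ± 0.15, adjusted p = 0.000175), and so did Fasn, the fatty acid synthase (log2 -1.68 ± 0.26, adjusted p = 0.000514), and Acaca, which makes malonyl-CoA (log2 -1.09 ± 0.25, adjusted p = 0.00708). The largest change of the list with LPS was that of Idh1, the cytosolic isocitrate dehydrogenase (log2 -2.74 ± 0.15, adjusted p = 7.94e-08). Me1, the cytosolic malic enzyme, rose with LPS (log2 1.25 ± 0.21, adjusted p = 0.000591).

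**Figure D3:**
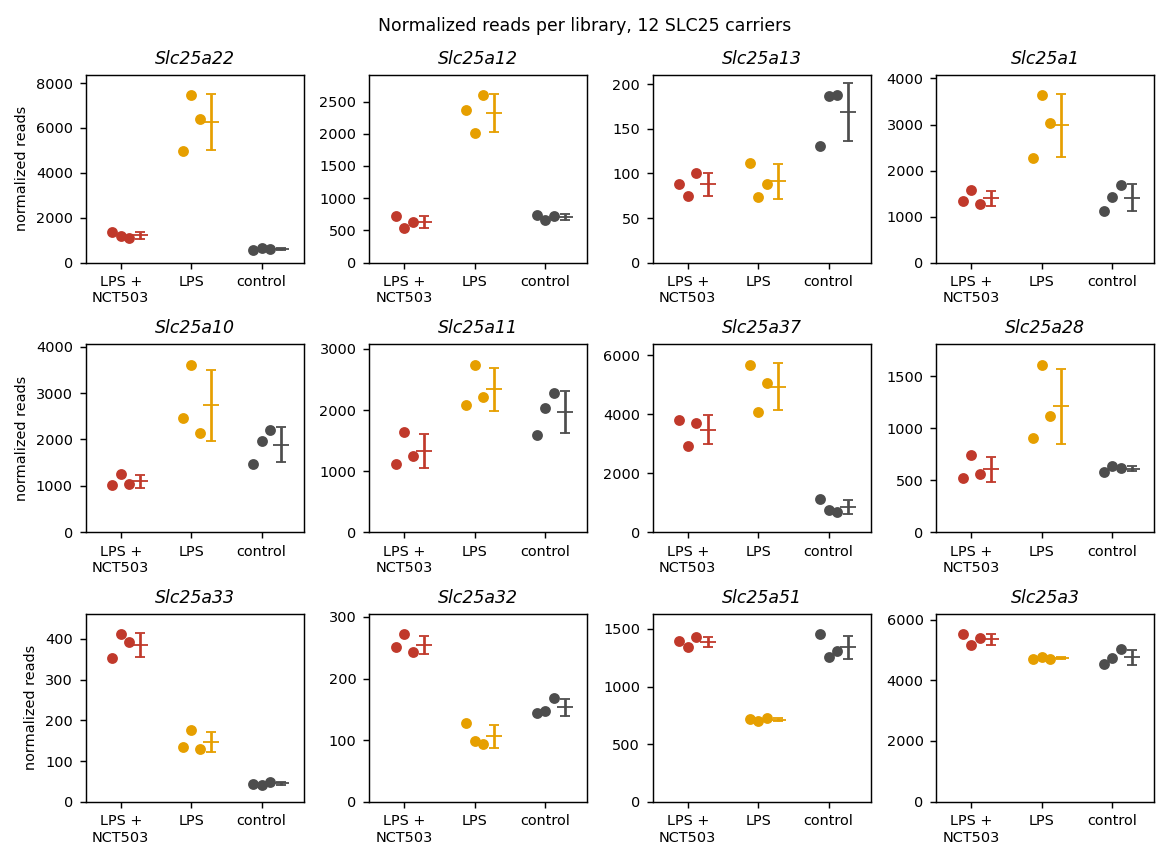
Normalized reads of 12 carriers in each library (points) with mean and SD (n = 3 libraries per group), each panel with its own axis from 0. The LPS points of Slc25a22, Slc25a12 and Slc25a1 lie above all others, those of Slc25a51 lie below all others, and the points of Slc25a33 are highest in LPS with NCT503 and lowest in control.

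Among 9 amino acid carriers, 2 rose and 2 fell in LPS against control, 0 rose and 3 fell of 8 tested in LPS with NCT503 against LPS, and 2 rose and 2 fell in LPS with NCT503 against control, with medians of 0.30, -0.44 and -0.33 in this order. Slc25a22 (chromosome 7, 141429744 to 141437892), which brings glutamate into the matrix with a proton, had 1377, 1166 and 1091 normalized reads in LPS with NCT503, 4981, 7447 and 6385 in LPS and 556, 631 and 611 in control. LPS libraries were highest, control libraries lowest, and no groups overlapped. Its rise with LPS was the largest of the family (log2 3.37 ± 0.17, adjusted p = 3.78e-08). It fell in LPS with NCT503 against LPS (log2 -2.36 ± 0.19, adjusted p = 6.58e-06) and was above control in LPS with NCT503 (log2 1.01 ± 0.15, adjusted p = 0.000476). The second glutamate carrier, Slc25a18, held 23.2 to 92.8 normalized reads in any library. It was called higher in LPS with NCT503 against control (log2 0.97 ± 0.33, adjusted p = 0.0393), and lost that call with scaling to total reads, TMM or edgeR (log2 0.52, 0.89 and 0.93), or without LPS with NCT503 library 1 or 3 or control library 2 or 3 (log2 0.70 to 1.02, adjusted p = 0.0832 to 0.151).

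Slc25a12 and Slc25a13 are the 2 aspartate/glutamate carriers of the malate-aspartate shuttle, which passes reducing equivalents of cytosolic NADH to the matrix. Slc25a12 (chromosome 2, 71271063 to 71367749) had 727, 534 and 623 normalized reads in LPS with NCT503, 2365, 2011 and 2595 in LPS and 741, 662 and 716 in control. The LPS libraries stood apart above the rest, and the other 2 groups overlapped. Slc25a12 rose with LPS (log2 1.71 ± 0.15, adjusted p = 3.35e-06), fell in LPS with NCT503 against LPS (log2 -1.89 ± 0.18, adjusted p = 2.07e-05) and was not called in LPS with NCT503 against control (log2 -0.18 ± 0.16, adjusted p = 0.418). Scaling to total reads called it lower in that last comparison (log2 -0.63, adjusted p = 0.0115). Slc25a13 (chromosome 6, 6041218 to 6217173) had 87.7, 74.9 and 101 normalized reads in LPS with NCT503, 112, 73.6 and 87.9 in LPS and 131, 187 and 187 in control. Its control libraries were the highest, and the 2 LPS groups overlapped. Slc25a13 fell with LPS (log2 -0.88 ± 0.24, adjusted p = 0.011) and in LPS with NCT503 against control (log2 -0.92 ± 0.23, adjusted p = 0.00785), and LPS with NCT503 against LPS gave log2 -0.04 ± 0.25 (adjusted p = 0.918). The call with LPS ended without control library 2 or 3 (log2 -0.79 each, adjusted p = 0.0651 and 0.0535), and that of LPS with NCT503 against control without control library 2 (log2 -0.84, adjusted p = 0.0516). The level of Slc25a12 per kilobase was 85.5 in LPS with NCT503, 317 in LPS and 96.2 in control, against 23.1, 24.0 and 44.4 for Slc25a13.

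Of the 4 shuttle enzymes, 0 rose and 3 fell with LPS, 1 rose and 0 fell with NCT503 added, and 2 rose and 2 fell in LPS with NCT503 against control, with medians of -0.77, -0.09 and -0.19 in this order. Got1, the cytosolic aspartate aminotransferase, fell with LPS (log2 -1.66 ± 0.15, adjusted p = 5.18e-06), rose in LPS with NCT503 against LPS (log2 2.41 ± 0.18, adjusted p = 3.35e-06) and rose in LPS with NCT503 against control (log2 0.74 ± 0.15, adjusted p = 0.00231). Mdh1, the cytosolic malate dehydrogenase, fell with LPS (log2 -1.07 ± 0.18, adjusted p = 0.000619) and in LPS with NCT503 against control (log2 -1.46 ± 0.19, adjusted p = 0.000134).

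Slc25a15, the ornithine carrier of the urea cycle and of arginine metabolism, had 65.2, 68.7 and 81.2 normalized reads in LPS with NCT503, 85.2, 58.6 and 80.0 in LPS and 129, 151 and 128 in control. All 3 control libraries lay above the other 6, and the 2 LPS groups overlapped. Slc25a15 fell with LPS (log2 -0.87 ± 0.22, adjusted p = 0.00875) and in LPS with NCT503 against control (log2 -0.92 ± 0.21, adjusted p = 0.00522); without control library 2 the first of these gave log2 -0.79 (adjusted p = 0.0594). Among 7 ornithine and arginine enzymes, 4 rose and 0 fell with LPS, 2 rose and 2 fell with NCT503 added, and 5 rose and 0 fell in LPS with NCT503 against control, with medians of 0.99, -0.49 and 2.38 in this order. Ass1, the argininosuccinate synthase, rose with LPS (log2 4.01 ± 0.17, adjusted p = 1.21e-08) and fell in LPS with NCT503 against LPS (log2 -1.62 ± 0.20, adjusted p = 0.000112). Oat, which converts ornithine in the matrix, rose in LPS with NCT503 against LPS (log2 0.87 ± 0.17, adjusted p = 0.00271).

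Slc25a38, which brings in glycine for heme synthesis, had 163, 187 and 174 normalized reads in LPS with NCT503, 262, 379 and 306 in LPS and 182, 244 and 241 in control. The LPS libraries lay above the rest. It fell in LPS with NCT503 against LPS (log2 -0.83 ± 0.21, adjusted p = 0.0103), a call that ended without LPS library 2 (log2 -0.68, adjusted p = 0.0513), and LPS against control gave log2 0.50 ± 0.20 (adjusted p = 0.0625). Slc25a44, a carrier of branched-chain amino acids with 1017 to 1673 normalized reads in any library, and Slc25a29, a carrier of basic amino acids with 5.41 to 30.2, were not called in any comparison. For Slc25a44 the log2 fold changes were 0.32, 0.08 and 0.40 in LPS against control, LPS with NCT503 against LPS and LPS with NCT503 against control.

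Slc25a20, which takes acylcarnitines into the matrix for fatty acid oxidation, had 318, 417 and 349.6 normalized reads in LPS with NCT503, 348, 372 and 389 in LPS and 622, 571 and 675 in control. Control libraries were the highest, with no overlap, and the 2 LPS groups overlapped. Slc25a20 fell with LPS (log2 -0.74 ± 0.15, adjusted p = 0.00193) and in LPS with NCT503 against control (log2 -0.79 ± 0.17, adjusted p = 0.00359); LPS with NCT503 against LPS gave log2 -0.04 ± 0.19 (adjusted p = 0.893), 95% interval -0.45 to 0.37. Of 7 carnitine shuttle and related enzymes, 0 rose and 3 fell with LPS, 1 rose and 0 fell with NCT503 added, and 0 rose and 3 fell in LPS with NCT503 against control, with medians of -0.34, 0.06 and -0.61 in this order. Acadm, the medium-chain acyl-CoA dehydrogenase, fell with LPS (log2 -1.90 ± 0.17, adjusted p = 4.28e-06), and so did Crat, the carnitine acetyltransferase (log2 -1.40 ± 0.15, adjusted p = 1.49e-05). Cpt1a, which makes acylcarnitines at the outer membrane, fell with LPS (log2 -1.29 ± 0.16, adjusted p = 4.73e-05) and rose in LPS with NCT503 against LPS (log2 0.63 ± 0.17, adjusted p = 0.0171).

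The cofactor and nucleotide carriers supply the matrix with NAD, coenzyme A, folate, S-adenosylmethionine and nucleotides. Of the 9 in this role, 1 rose and 5 fell in LPS against control, 6 rose and 0 fell in LPS with NCT503 against LPS, and 2 rose and 1 fell in LPS with NCT503 against control, with medians of -0.90, 0.96 and -0.15 in this order. These calls are 66.7%, 66.7% and 33.3% of the 9, against 41.8%, 32.6% and 40.4% of all genes tested. Slc25a33 (chromosome 4, 149744036 to 149774277), a pyrimidine nucleotide carrier that serves mitochondrial DNA and RNA synthesis, had 354, 411 and 391.8 normalized reads in LPS with NCT503, 135, 176 and 129.8 in LPS and 43.7, 42.0 and 48.9 in control. No groups overlapped: the libraries with NCT503 were highest and those of control lowest. Slc25a33 rose in LPS against control (log2 1.68 ± 0.23, adjusted p = 0.000106), in LPS with NCT503 against LPS (log2 1.40 ± 0.20, adjusted p = 0.000352) and in LPS with NCT503 against control (log2 3.07 ± 0.19, adjusted p = 8.13e-07), the last being the largest change of the family in that comparison. In GENCODE M21, 14.9% of its exonic bases overlap Gm13068 on the opposite strand, and with the strand setting unknown its level is uncertain. The related carrier Slc25a36, with 229 to 753 normalized reads in any library, fell with LPS (log2 -1.14 ± 0.23, adjusted p = 0.00172) and rose in LPS with NCT503 against LPS (log2 1.0 ± 0.29, adjusted p = 0.0198). For the second of these the groups overlapped, and the call ended without LPS library 2 or 3 or LPS with NCT503 library 1 or 3 (log2 0.81 to 0.93, adjusted p = 0.0756 to 0.0946).

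Slc25a32 (chromosome 15, 39094191 to 39112716), which carries folate or FAD into mitochondria and so serves the matrix steps of one-carbon metabolism, had 251, 272 and 242 normalized reads in LPS with NCT503, 128, 98.2 and 93.1 in LPS and 143, 147 and 169 in control. The libraries with NCT503 were the highest, LPS the lowest, and no groups overlapped. Slc25a32 rose in LPS with NCT503 against LPS (log2 1.27 ± 0.21, adjusted p = 0.000887) and against control (log2 0.73 ± 0.17, adjusted p = 0.00672), the second call ending with scaling to total reads (log2 0.28, adjusted p = 0.188); LPS against control gave log2 -0.53 ± 0.21 (adjusted p = 0.0609), and was called lower with total reads, TMM, edgeR, all 9 libraries in 1 fit or the replicate block (log2 -1.22 to -0.53). Slc25a51 (chromosome 4, 45395923 to 45408766), the NAD carrier (a role shown for the human protein), had 1392, 1344 and 1429.7 normalized reads in LPS with NCT503, 715, 698 and 726 in LPS and 1452, 1256 and 1312 in control. All 3 LPS libraries lay below the other 6, whose groups overlapped. Slc25a51 fell with LPS (log2 -0.90 ± 0.14, adjusted p = 0.000273), rose in LPS with NCT503 against LPS (log2 0.96 ± 0.16, adjusted p = 0.000746) and was not called in LPS with NCT503 against control (log2 0.05 ± 0.14, adjusted p = 0.788, 95% interval -0.26 to 0.36).

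Slc25a42, the coenzyme A carrier, was among the rarer members, with 3.93 to 53.7 normalized reads in any library, and its LPS libraries were the lowest with no overlap. It fell with LPS (log2 -2.55 ± 0.39, adjusted p = 0.000299) and rose in LPS with NCT503 against LPS (log2 2.38 ± 0.41, adjusted p = 0.00101). Slc25a16, a relative of the coenzyme A carrier with 106 to 261 normalized reads, fell with LPS (log2 -0.93 ± 0.20, adjusted p = 0.0026) and rose with NCT503 added (log2 0.74 ± 0.23, adjusted p = 0.0315); the rise lost its call without LPS library 2 or 3 or LPS with NCT503 library 1 or 3 (log2 0.59 to 0.75, adjusted p = 0.0784 to 0.134). Slc25a26, which carries S-adenosylmethionine for methylation in the matrix, had 52.0, 76.0 and 64.9 normalized reads in LPS with NCT503, 68.0, 72.3 and 74.7 in LPS and 124, 121 and 165 in control. Its control libraries were the highest and the 2 LPS groups overlapped. Slc25a26 fell with LPS (log2 -0.90 ± 0.22, adjusted p = 0.00562) and in LPS with NCT503 against control (log2 -1.08 ± 0.24, adjusted p = 0.00441). Slc25a17, which carries coenzyme A, FAD and related nucleotides in the peroxisome, had 339 to 432 normalized reads and was not called in any comparison.

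The iron and glutathione carriers numbered 4, of which 2 rose and 1 fell in LPS against control, 1 rose and 1 fell in LPS with NCT503 against LPS, and 1 rose and 1 fell in LPS with NCT503 against control, with medians of 0.25, -0.25 and -0.24 in this order. Slc25a37 (chromosome 14, 69241848 to 69285112), mitoferrin 1, which imports iron, had 3817, 2910.2 and 3682 normalized reads in LPS with NCT503, 5665, 4087 and 5046 in LPS and 1139.6, 762 and 666 in control. LPS libraries were the highest, control the lowest, and no groups overlapped. Slc25a37 rose with LPS (log2 2.56 ± 0.21, adjusted p = 1.88e-06) and in LPS with NCT503 against control (log2 2.05 ± 0.21, adjusted p = 3.13e-05); LPS with NCT503 against LPS gave log2 -0.50 ± 0.19 (adjusted p = 0.0585). Slc25a37 is best known from red cell precursors, and erythroid markers summed to at most 70.8 normalized reads in any library as given above. Slc25a28, the mitoferrin of other cell types, had 519.9, 739.8 and 555 normalized reads in LPS with NCT503, 905, 1608 and 1119 in LPS and 581, 636 and 618 in control. The LPS libraries lay above the other 6, whose groups overlapped. Slc25a28 rose with LPS (log2 0.95 ± 0.20, adjusted p = 0.00238), a call lost with scaling to total reads (log2 0.25, adjusted p = 0.242), and fell in LPS with NCT503 against LPS (log2 -0.97 ± 0.23, adjusted p = 0.00814). It was not called in LPS with NCT503 against control (log2 -0.03 ± 0.17, adjusted p = 0.901), where total reads called it lower (log2 -0.48, adjusted p = 0.0485).

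Slc25a39, which brings glutathione into the matrix, was the second highest member per kilobase in control (898.5 in LPS with NCT503, 907 in LPS and 1228 in control). It had 2145, 3115 and 2169 normalized reads in LPS with NCT503, 1892, 3315 and 2293 in LPS and 2484, 3563 and 4103 in control. The 3 groups overlapped and no comparison called it (log2 -0.44 ± 0.23, adjusted p = 0.155 for LPS against control and log2 0.01 ± 0.23, adjusted p = 0.989 for LPS with NCT503 against LPS). In LPS against control other settings called it lower: scaling to total reads (log2 -1.14, adjusted p = 0.000828), quantile normalization (log2 -1.1, adjusted p = 0.000565), the replicate block (adjusted p = 0.00356), and leaving out LPS library 2 or control library 1 (log2 -0.66 and -0.65, adjusted p = 0.0381 and 0.0438). It was also called lower in LPS with NCT503 against control with total reads, with quantile normalization, and without LPS with NCT503 library 2 or control library 1 (log2 -0.89, -0.88, -0.62 and -0.65). Its relative Slc25a40 (chromosome 5, 8422850 to 8454797) had 61.2, 62.4 and 64.9 normalized reads in LPS with NCT503, 34.6, 32.7 and 21.0 in LPS and 128, 130.2 and 108 in control. No groups overlapped, with control the highest and LPS the lowest. Slc25a40 fell with LPS (log2 -2.04 ± 0.27, adjusted p = 8.52e-05) and in LPS with NCT503 against control (log2 -0.94 ± 0.21, adjusted p = 0.00436), and rose in LPS with NCT503 against LPS (log2 1.10 ± 0.29, adjusted p = 0.0144), where the call ended without library 3 of either group (log2 0.88 without LPS library 3 and 1.07 without LPS with NCT503 library 3, adjusted p = 0.0618 and 0.0617). The level of Slc25a40 per kilobase was 7.49 in LPS with NCT503, 3.51 in LPS and 14.6 in control, far under that of Slc25a39.

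Of 11 genes of mitochondrial iron use and heme synthesis, 1 rose and 6 fell with LPS, 4 rose and 2 fell with NCT503 added, and 3 rose and 4 fell in LPS with NCT503 against control, with medians of -0.51, -0.09 and -0.18 in this order. Alas1, the first enzyme of heme synthesis, rose with LPS (log2 1.93 ± 0.17, adjusted p = 4.75e-06) and fell in LPS with NCT503 against LPS (log2 -1.29 ± 0.19, adjusted p = 0.000418). Hscb, a co-chaperone of iron-sulfur cluster transfer, fell with LPS (log2 -2.31 ± 0.21, adjusted p = 4.28e-06) and rose in LPS with NCT503 against LPS (log2 2.36 ± 0.26, adjusted p = 5.44e-05). Fech, which inserts iron into heme, rose in LPS with NCT503 against LPS (log2 1.49 ± 0.16, adjusted p = 4.99e-05), and so did the matrix chaperone Hspa9 (log2 2.47 ± 0.20, adjusted p = 5.35e-06). With LPS against control Fech and Hspa9 fell (log2 -0.74 ± 0.15 and -0.71 ± 0.17, adjusted p = 0.00193 and 0.00671).

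The remaining 7 members have substrates that are less settled, or act outside the inner membrane. In this role 1 rose and 2 fell in LPS against control, 0 rose and 2 fell in LPS with NCT503 against LPS, and 0 rose and 3 fell in LPS with NCT503 against control, with medians of -0.16, 0.33 and 0.01 in this order. Slc25a43 (chromosome X, 36743659 to 36777202) had 59.1, 58.3 and 44.4 normalized reads in LPS with NCT503, 319, 367 and 330.4 in LPS and 89.5, 107 and 99.4 in control. LPS libraries were the highest, those with NCT503 the lowest, and no groups overlapped. Slc25a43 rose with LPS (log2 1.78 ± 0.18, adjusted p = 1.03e-05) and in LPS with NCT503 against LPS showed the largest change of the family, a fall (log2 -2.63 ± 0.22, adjusted p = 7.25e-06). It also fell in LPS with NCT503 against control (log2 -0.87 ± 0.23, adjusted p = 0.0123), a call that ended without LPS with NCT503 library 3 (log2 -0.74, adjusted p = 0.0556) or control library 2 (log2 -0.81, adjusted p = 0.0751). Slc25a45 (chromosome 19, 5877808 to 5885766) had 312, 421 and 327 normalized reads in LPS with NCT503, 984, 1083 and 894 in LPS and 984, 1147 and 1195 in control. The libraries with NCT503 lay below the other 6, and LPS overlapped control. Slc25a45 fell in LPS with NCT503 against LPS (log2 -1.49 ± 0.19, adjusted p = 0.000122) and against control (log2 -1.65 ± 0.17, adjusted p = 3.37e-05), and LPS against control gave log2 -0.16 ± 0.15 (adjusted p = 0.416), which total reads and quantile normalization called lower (log2 -0.86 and -0.50, adjusted p = 0.000441 and 0.0104).

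Slc25a35, with 15.6 to 115 normalized reads in any library, fell with LPS (log2 -1.86 ± 0.30, adjusted p = 0.000445) and in LPS with NCT503 against control (log2 -2.36 ± 0.30, adjusted p = 0.000123). Its values are uncertain, since 31.3% of its exonic bases overlap Rangrf on the opposite strand. Slc25a53, with 9.55 to 54.0, fell with LPS (log2 -1.12 ± 0.40, adjusted p = 0.0432); the call ended without LPS library 2 (log2 -0.68) or without any one control library (log2 -1.27 to -1.0), with adjusted p = 0.0502 to 0.139. Slc25a46, which acts in outer membrane dynamics and had 314 to 644 normalized reads, and Slc25a47, a liver carrier with 5.25 to 13.5, were not called in any comparison.

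**Figure D4:**
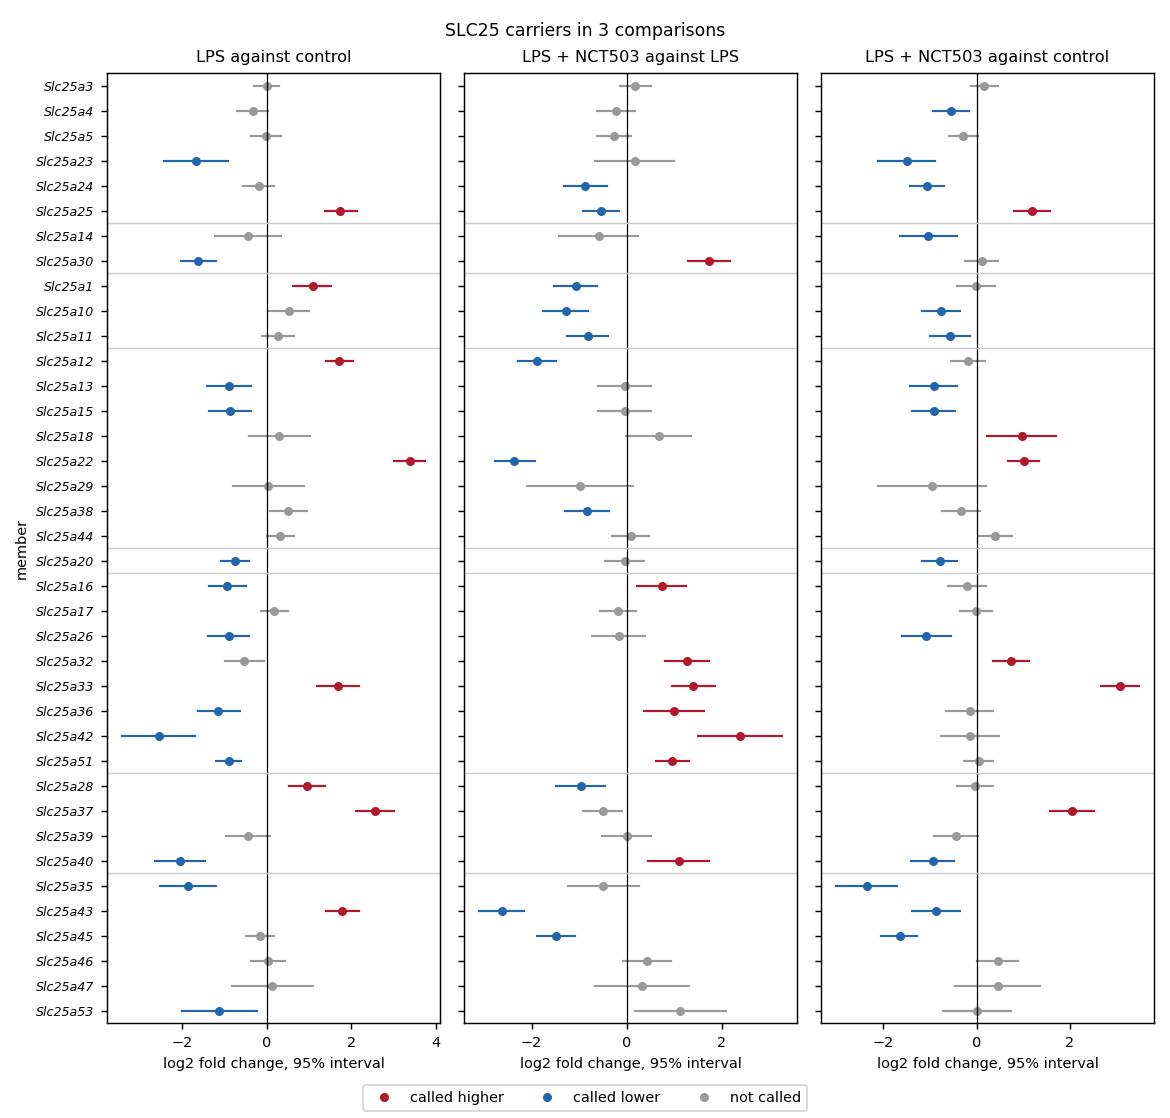
Log2 fold change of 38 carriers with its 95% interval in LPS against control, LPS with NCT503 against LPS, and LPS with NCT503 against control, with members called higher in red, called lower in blue and not called in grey. The panels show 8 higher and 13 lower, 8 higher and 11 lower, and 6 higher and 14 lower, without Slc25a2, Slc25a27, Slc25a31 and Slc25a34, which have too few reads; Slc25a22 stands farthest right in the first and Slc25a33 in the third.

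The carriers reach the inner membrane through the TIM22 pathway. Of its 13 import components and chaperones, 1 rose and 1 fell with LPS, 2 rose and 4 fell with NCT503 added, and 2 rose and 3 fell in LPS with NCT503 against control, with medians of 0.00, -0.19 and -0.33 in this order. By comparison, 41.8%, 32.6% and 40.4% of all genes were called. Timm8a1, with the smallest p of the list in LPS with NCT503 against LPS, rose there (log2 0.94 ± 0.21, adjusted p = 0.00571). Timm22, the channel subunit, fell in LPS with NCT503 against LPS (log2 -1.0 ± 0.26, adjusted p = 0.0132), as did Timm29, a subunit of the same complex in human cells (log2 -0.80 ± 0.19, adjusted p = 0.0072). The receptor subunit Tomm22 rose with LPS (log2 0.54 ± 0.16, adjusted p = 0.0199) and the intermembrane chaperone Timm9 fell (log2 -0.97 ± 0.29, adjusted p = 0.0182).

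Among 19 inner membrane transporters outside the family, 4 rose and 5 fell with LPS, 6 rose and 8 fell with NCT503 added, and 5 rose and 6 fell in LPS with NCT503 against control, with medians of 0.08, -0.19 and 0.11 in this order. All genes were called at 41.8%, 32.6% and 40.4%. Sfxn1, which imports serine into mitochondria, rose in LPS with NCT503 against LPS (log2 2.35 ± 0.23, adjusted p = 2e-05). Mcub, the inhibitory subunit of the calcium uniporter, rose with LPS (log2 1.37 ± 0.16, adjusted p = 3.44e-05) and fell in LPS with NCT503 against LPS (log2 -1.19 ± 0.17, adjusted p = 0.000286). Of 9 regulators of mitochondrial biogenesis tested, 3 rose and 2 fell with LPS, 0 rose and 2 fell with NCT503 added, and 2 rose and 3 fell in LPS with NCT503 against control, with medians of -0.07, -0.27 and -0.35 in this order. Esrra, a nuclear receptor of mitochondrial genes, rose with LPS (log2 1.12 ± 0.18, adjusted p = 0.000487) and fell in LPS with NCT503 against LPS (log2 -1.0 ± 0.20, adjusted p = 0.00287).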

How the data were processed

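RNA-seq was measured in 9 libraries, 3 per group. TopHat2 and mouse build mm10 are named in the submitters' processing notes. Program versions, read counter, annotation, strandedness and the authors' differential test: not given in the sources used here. Per the file headers and the values, the authors deposited for each of 2 comparisons the signal per library (the reads of a gene over a size factor, 100% whole within a tolerance of 0.001 once multiplied back), gene length, a log2 fold change, a p-value and its adjusted form. LPS libraries are in both tables with identical reads.

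From this signal, every gene averaging 1 or more normalized reads in either group went into limma 3.58.1 (R 4.3.3; trend, robust) on log2(normalized reads + 1), with a two-sided test, Benjamini-Hochberg adjusted over all genes tested. This scale understates changes of rare genes. Each table was tested with its own scaling; LPS with NCT503 against control used the 21434 genes in both tables and one scaling of all 9 libraries. Alternatives included edgeR 4.0.16 and DESeq2 1.42.0 on the recovered reads. Since the values are signal and not FPKM or counts, the test foreseen for normalized values was used.

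Per-library values are given for called members with non-overlapping groups and at least 100 normalized reads in the higher group, up to 8 per comparison by size of change, and for members fixed by name. The counts cover all 43 members, 1 of which is not reported here by itself. Ranges are given for the others. Of each list of related genes, examples come from the 3 with the smallest p. Members and lists were chosen with earlier results of these data known. Gene positions are the authors' (mm10). All 43 members are in GENCODE M21, 35 with the same start and end, and 13 share exonic bases with another gene, 2 of them at least 10%. Promoters are from RefSeq (GRCm38.p6).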

Additional observations from a re-analysis of the deposited data

How the results depend on the processing

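Of the called members, 15 of 22 in LPS against control, 13 of 19 in LPS with NCT503 against LPS and 14 of 20 in LPS with NCT503 against control kept their call under every alternative that tests single genes (pseudocount 0.1, no filter, TMM, total reads, quantile normalization, edgeR, DESeq2, all 9 libraries in 1 fit, replicate block, each library left out), and none changed sign. The calls lost outside the leave-one-out fits and not given above were, in LPS against control, Slc25a13, Slc25a15 and Slc25a26 under quantile normalization, Slc25a27 with DESeq2, and Slc25a53 with DESeq2, the smaller pseudocount and quantile normalization. In LPS with NCT503 against LPS they were Slc25a16 and Slc25a40 under quantile normalization, Slc25a24 with total reads, and Slc25a25 with both. Scaling to total reads gave 28 members lower in LPS against control and 23 lower in LPS with NCT503 against control, where it moves the median of all genes down. A fold change of at least 2 left 8 lower in LPS against control, 5 higher and 6 lower in LPS with NCT503 against LPS, and 6 lower in LPS with NCT503 against control. Leaving out one library gave 8 to 10 higher and 11 to 15 lower in LPS against control, 5 to 11 higher and 10 to 13 lower in LPS with NCT503 against LPS (5 higher without library 3 of either group), and 5 to 7 higher and 10 to 17 lower in LPS with NCT503 against control.

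Members not called were also called by some alternatives, counted over the 42 reported here. In LPS against control, total reads called 13 such members lower (Slc25a14, Slc25a17, Slc25a24, Slc25a31, Slc25a44 and Slc25a46 beside those given above or next), quantile normalization 6, of them 5 lower, and the replicate block 6, of them 3 lower. Slc25a10 was called with DESeq2. Leaving out LPS library 1 called Slc25a32, Slc25a38 and Slc25a44, and leaving out LPS library 2 called Slc25a31. Further calls in LPS with NCT503 against LPS were Slc25a3 higher with total reads and quantile normalization (log2 0.42 and 0.44), Slc25a37 lower with DESeq2, the block or without LPS library 2, Slc25a46 higher with the block, and Slc25a53 higher with total reads, all 9 libraries in 1 fit or the block. Total reads called 8 such members lower in LPS with NCT503 against control (Slc25a1, Slc25a5, Slc25a12, Slc25a16, Slc25a17, Slc25a28, Slc25a38 and Slc25a39), and quantile normalization 3 (Slc25a3, Slc25a5 and Slc25a39). Without LPS with NCT503 library 2, Slc25a18, Slc25a29, Slc25a46 and Slc25a53 were called against LPS, and Slc25a29, Slc25a39 and Slc25a46 against control.

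Changes of sign were examined for the members called or named for values by sample, 32 of 43 in LPS against control and 29 in each other comparison. Among these, members not called changed sign as follows (log2), and the cause was not tested. With total reads, LPS against control gave -0.18 for Slc25a10, -0.44 for Slc25a11 (adjusted p = 0.0135) and -0.20 for Slc25a38. The same scaling in LPS with NCT503 against LPS gave 0.03 for Slc25a4, 0.20 each for Slc25a13, Slc25a15 and Slc25a20, and 0.07 for Slc25a26. In LPS with NCT503 against control it gave -0.28 for Slc25a3, -0.34 for Slc25a30 and -0.40 for Slc25a51. Quantile normalization gave -0.03 for Slc25a10 and -0.30 for Slc25a11 in LPS against control, -0.08 for Slc25a23 in LPS with NCT503 against LPS, and -0.37 for Slc25a3 (adjusted p = 0.0232) and -0.25 for Slc25a51 in LPS with NCT503 against control. TMM gave -0.02 for Slc25a51, edgeR 0.01 for Slc25a20 and DESeq2 -0.01 for Slc25a39. With one library left out, LPS against control ran from -0.04 to 0.04 for Slc25a3 and from -0.10 to 0.09 for Slc25a5. LPS with NCT503 against LPS ran from -0.18 to 0.11 for Slc25a13, -0.20 to 0.06 for Slc25a15, -0.14 to 0.05 for Slc25a20, -0.15 to 0.51 for Slc25a23 and -0.18 to 0.23 for Slc25a39. LPS with NCT503 against control ran from -0.16 to 0.13 for Slc25a1 and from -0.19 to 0.07 for Slc25a28.

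With the replicate number as a block, 11 members were higher and 17 lower in LPS against control, 10 higher and 12 lower in LPS with NCT503 against LPS, and 6 higher and 14 lower in LPS with NCT503 against control. With it 48.6%, 41.4% and 40.6% of all genes tested were called in these comparisons, against 41.8%, 32.6% and 40.4% without. The labels do not say that same-numbered libraries are paired. Correlations were taken after the mean of each gene within each group was subtracted. Same-numbered libraries then correlated at 0.009 to 0.111, -0.038 to 0.195 and -0.10 to 0.02 in these comparisons. Not every library correlated best with its own number. In LPS with NCT503 against LPS, libraries 1 and 2 of both groups did (0.195 and 0.178), and library 3 of either group did not. Depth limits Slc25a2, Slc25a27, Slc25a31 and Slc25a34, with 1 to 21 reads per group.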
